A study of Rattus norvegicus with 6 samples.

Results

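Mast cells of the rat pancreas were identified in single-cell transcriptomes by their own genes and described rat by rat. A barcode was counted as a mast cell when it held at least 2 unique molecular identifiers (UMIs, each counting 1 captured transcript) of Cpa3, at least 1 UMI of Tpsb2, Tpsab1, Ms4a2, Kit or Fcer1a, and none of the T cell receptor complex genes Cd3e, Cd3d and Cd3g. Of 75981 barcodes with at least 200 genes and a mitochondrial UMI share of at most 25%, 90 met this rule. The members were thus chosen by measured UMIs of these genes in the same cells, so their levels are given as a description without a test.

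The cells came from the pancreas of 6 male Wistar rats, 2 per group. Young rats were sampled at baseline at an age of 2 months on a normal diet. Old rats had eaten a control diet, and HFHF-old rats a high-fat, high-fructose diet, for 18 months, and both were 20 months old. Islets were freed with collagenase P, enriched on a density gradient and dissociated, so the mast cells seen are those that survived the digestion and sedimented with islet tissue, and their share is not the share in the whole organ. No source used here describes a sort for immune cells.

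Mast cells are tissue-resident immune cells that arise from bone marrow progenitors and depend on stem cell factor acting through Kit. They carry the high-affinity receptor for IgE, made of Fcer1a, Ms4a2 and Fcer1g, and store histamine, serotonin, the proteoglycan serglycin and large amounts of proteases in granules that are released on activation. The proteases comprise carboxypeptidase A3 (Cpa3), chymases such as Cma1 and the rodent mast cell protease (Mcpt) family, and tryptases such as Tpsb2 and Tpsab1. In rodents, mast cells of connective tissue and of mucosa are classically distinguished by which of these proteases they hold, and in the pancreas mast cells are known mainly from the connective tissue around ducts and vessels and from inflammation.

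Library depth ranged from 77387928 to 166875258 UMIs, and the median kept barcode held 2547 to 9824 UMIs. The library of HFHF-old rat 2 stood apart in makeup: an Ins1 (insulin) UMI was found in 2.19% of its other cells against at least 88.0% in each other library, and a UMI of the cytotoxic lymphocyte gene Nkg7 in 78.4% against 14.1% to 33.5%. Between 20 and 69 barcode sequences were shared by any pair of libraries, and 1 of them belonged to a mast cell. Nothing in the labels says more about how the 2 rats of a group differed, so p-values measure the spread between these rats.

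The 90 mast cells were spread unevenly over the rats. Young rat 1 gave 25 and young rat 2 gave 6, old rat 1 gave 1 and old rat 2 gave 11, and HFHF-old rats 1 and 2 gave 20 and 27. As a share of kept barcodes this was 0.143% (95% exact binomial interval 0.0924% to 0.211%) and 0.0581% (0.0213% to 0.126%) in the young rats. It was 0.0134% (0.000339% to 0.0745%) and 0.0670% (0.0334% to 0.120%) in the old rats, and 0.160% (0.0977% to 0.247%) and 0.230% (0.152% to 0.334%) in the HFHF-old rats. Both HFHF-old rats lay above all 4 others, while the young and old rats overlapped. The intervals cover counting error only.

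**Figure D1:**
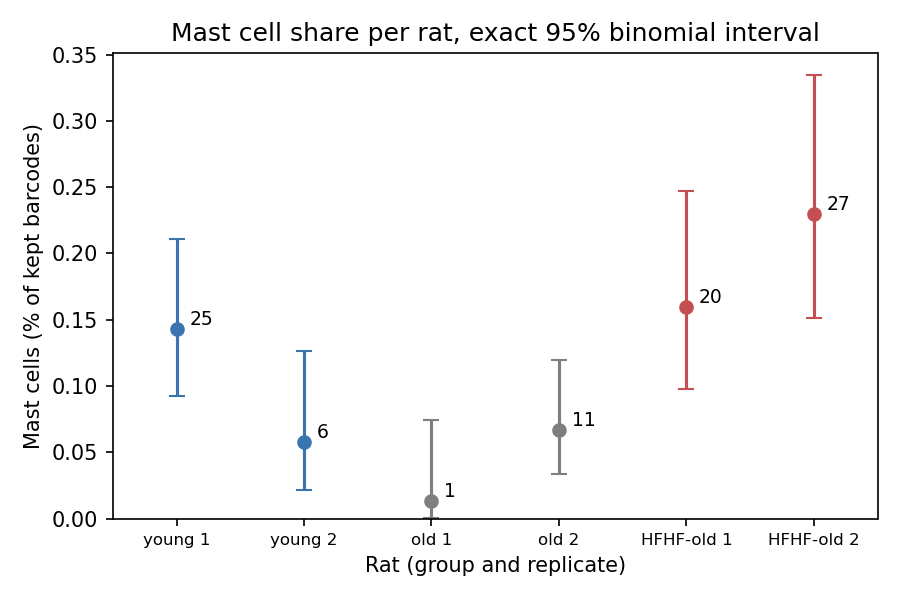
Share of kept barcodes that met the mast cell rule (y axis, percent) in each of the 6 rats (x axis), with the exact 95% binomial interval as the bar and the number of mast cells beside each point. The HFHF-old rats, at 0.160% and 0.230%, sit above the other 4 rats, whose highest value was 0.143%.

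Compared to the old group at 0.0402% ± 0.0379 (SD, n = 2), the HFHF-old group held 0.195% ± 0.0496 (SD, n = 2), a difference of 0.155 percentage points. A two-sided exact permutation test gave p = 0.333, the smallest p that 2 rats against 2 allow. Compared to the young group at 0.1005% ± 0.0599 (SD, n = 2), the HFHF-old group was 0.0945 points higher (exact permutation p = 0.333), and the old group was lower by a difference of -0.0603 points (exact permutation p = 0.667). No difference could therefore pass 0.05 with this number of rats. Without the mast cell barcodes that were rich in UMIs of another cell type, described below, HFHF-old rat 1 fell to 0.104% and young rat 1 to 0.114%, so the HFHF-old and young rats then overlapped.

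The makeup of the other cells enters this share. A share was also taken of kept barcodes with a UMI of the pan-leukocyte gene Ptprc, which left out members without such a UMI. The members counted were 21 and 6 in the young, 1 and 8 in the old, and 18 and 24 in the HFHF-old rats. Their share was 0.224% and 0.104% in the young, 0.0215% and 0.0983% in the old, and 0.229% and 0.224% in the HFHF-old rats. The HFHF-old and old rats remained separate on this scale, and young rat 1 and HFHF-old rat 2 were both at 0.224%. How young rat 1 and the HFHF-old rats are ordered with the members left out added back was not tested. In these samples, more mast cells and fewer other cells recovered cannot be told apart.

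The gated barcodes carried the defining genes broadly. Cpa3 had a median of 46 UMIs per cell and a highest count of 506, well above the limit of 2. Ms4a2, the beta chain of the IgE receptor, was found in 85 of 90 cells, Kit in 78 and Fcer1a in 74, whereas the tryptases Tpsb2 and Tpsab1 were found in 28 and 18. Removing the tryptases from the rule changed no member. At the edge of the rule, 2 members had exactly 2 Cpa3 UMIs and carried 0 and 3 UMIs of Cma1, while 40 barcodes that met the rest of the rule had 1 Cpa3 UMI, and 27 of these had no Cma1.

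Of the 12 genes of the mast cell list, 6 are genes of the rule, so their level was set by the choice of members. The other 6 (Cma1, Mcpt1, Hdc, Slc18a2, Gata2 and Hpgds) were all detected, and their summed level ran from 13214 to 44906 CPM (UMIs scaled to a sum of 1000000 per rat and cell set) in the mast cells of a rat against 12.3 to 67.0 CPM in the other cells. Of the 6 genes of the basophil list, 5 were detected in members and Prss34 was at 0 in every member. The list's sum of 3212 to 15583 CPM was carried by Mcpt8, described with the proteases. The eosinophil list summed to 0 to 303 CPM per rat, against 3.12 to 37.4 CPM in other cells. Most of its UMIs sat in 1 barcode of young rat 2 (24 UMIs) and 1 of HFHF-old rat 2 (47 UMIs). These also held the most Mcpt8 of their rats, with 565 and 971 UMIs. The latter had 14 UMIs of Cpa3, 15 of Cma1 and none of Fcer1a among 39652. The B cell genes Cd79b and Ms4a1 and the neutrophil genes S100a8 and S100a9 were at 0. The natural killer and cytotoxic list summed to 130 to 644 CPM per rat, against 396 to 5736 CPM in other cells, with at least 2 UMIs in 44 of the 90 cells. The list of group 2 innate lymphoid cells summed to 455 to 1937 CPM (65 cells), led by Il1rl1, which mast cells also carry, while Gata3 and Areg were at 0. Macrophage genes summed to 13.6 to 8806 CPM per rat, with at least 2 UMIs in 32 of the 90 cells, fibroblast genes to 0 to 10800 CPM (22 cells), and the endocrine and acinar lists to 20.4 to 97865 CPM and 51.1 to 63875 CPM. These UMIs sat mostly in few barcodes. A group of 16 members, chosen after these values were seen, held at least 20 UMIs of the macrophage or fibroblast list or at least 10% of their UMIs from the endocrine and acinar lists. The limit of 20 UMIs is a fixed number, so shallow barcodes reach it less easily. Members of old rat 2 had a median of 1739 UMIs, against at least 5379 in each other rat. The 16 mixed members numbered 5 and 3 in the young rats, 0 and 1 in the old rats, and 7 and 0 in the HFHF-old rats. They held 97.1% of all C1qa UMIs of the members, 99.8% of Col1a1 and 93.9% of Ins1, but 11.7% of Cpa3, 10.5% of Cma1, 4.68% of Mcpt1 and 43.7% of Mcpt1l1. Protease levels, the splits of the cells by Mcpt1l1 and tryptase, and the counts of called genes over all genes are given with and without them, and those of single lists where they moved by over 1.5 times.

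The granule proteases were abundant in the mast cells of every rat. In this 3′ protocol 1 UMI stands for 1 captured transcript end, so levels need no correction for gene length. Cma1, the chymase shared with other mammals, reached 12475 and 12135 CPM in the mast cells of the young rats, 19413 and 30889 in the old rats and 6602 and 17398 in the HFHF-old rats. Mcpt1, a chymase of the rodent family, stood at 10523 and 9117 CPM in the young, 10961 and 10426 in the old, and 4650 and 14370 in the HFHF-old rats. For both genes the lowest value was that of HFHF-old rat 1, in which UMIs of acinar and macrophage genes were also highest. With the mixed barcodes left out, HFHF-old rat 1 stood at 11946 CPM of Cma1 and 12004 of Mcpt1. Mcpt1 then ran from 10961 CPM in old rat 1 to 15420 in young rat 1 with all groups overlapping, and Cma1 remained lowest in HFHF-old rat 1 and highest in the old rats (19413 and 37173 CPM).

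Mcpt8, a granzyme-like protease best known from basophils, was found in 77 of the 90 cells with a median of 43.5 UMIs. Its level was 9000 and 11971 CPM in the mast cells of the young rats, 15451 and 15358 in the old, and 3163 and 14309 in the HFHF-old rats. Mcpt8l2, a close relative, was at 6933 and 9231, 5238 and 11638, and 2334 and 7377 CPM in the same order. When the mixed barcodes were removed, HFHF-old rat 1 had 7187 CPM of Mcpt8, still the lowest, and 5900 CPM of Mcpt8l2, above old rat 1. Mcpt8 was thus among the most abundant proteases in every rat's mast cells, and the basophil protease Prss34 was absent from all of them. Outside HFHF-old rat 2, however, no kept barcode of any kind held a Prss34 UMI, so its absence does not set members apart there. A Mcpt8 UMI was also present in 2.00% to 11.1% of the other cells, where its level was 2.81 to 102 CPM.

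Mcpt1l1 and the tryptases varied far more. Mcpt1l1 was at 3161 and 101 CPM in the young, 0 and 8869 in the old, and 6981 and 2214 in the HFHF-old rats. Tpsb2, a rule gene, was at 68 and 0, 0 and 1038, and 2617 and 518 CPM in that order, and Tpsab1 at 5.23 and 0, 0 and 779, and 1123 and 20.4 CPM. The 2 rats without tryptase UMIs were those with 6 mast cells and 1 mast cell, while old rat 2, with 11 cells, had the highest Mcpt1l1 level and lay between the HFHF-old rats for both tryptases. Without the mixed barcodes young rat 1 had no tryptase UMI, old rat 2 had 6680 CPM of Mcpt1l1, 485 of Tpsb2 and 53.9 of Tpsab1, and HFHF-old rat 1 had 7275, 4378 and 770 CPM, so that HFHF-old rat 1 was highest for all 3 genes.

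**Figure D2:**
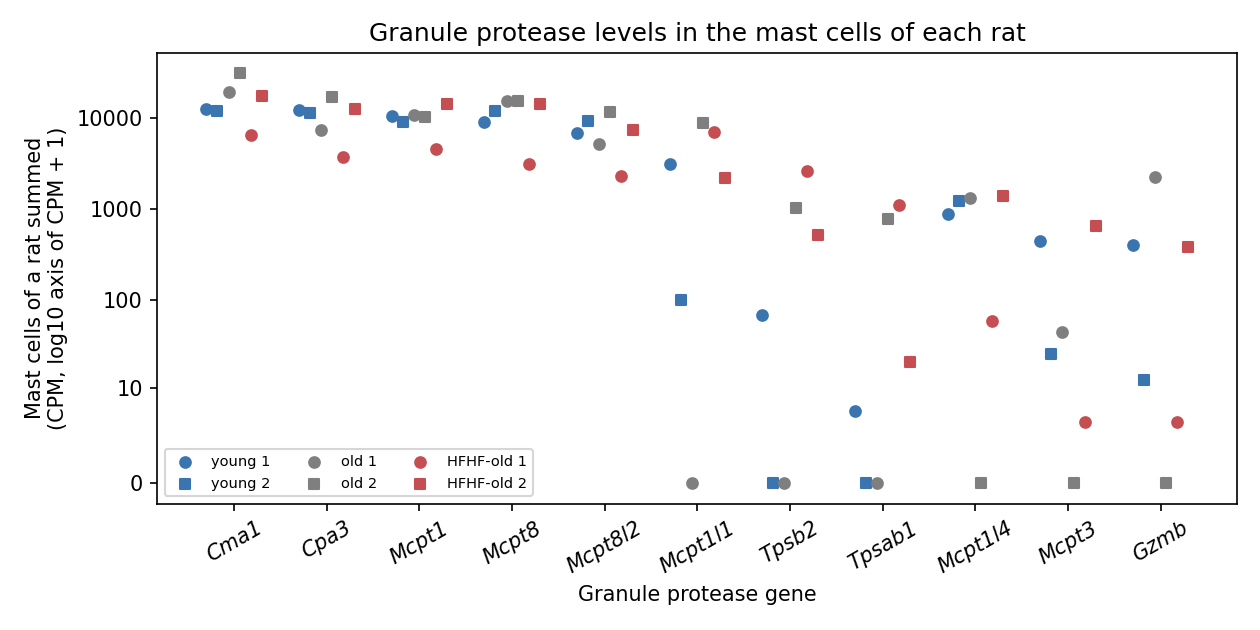
Level of 11 granule protease genes in the summed mast cells of each rat (y axis, CPM on a log10 axis of CPM + 1, genes on the x axis, 1 symbol per rat). Cma1, Cpa3, Mcpt1, Mcpt8 and Mcpt8l2 lie between 2334 and 30889 CPM in every rat, whereas Mcpt1l1, the tryptases Tpsb2 and Tpsab1, Mcpt1l4, Mcpt3 and Gzmb range from 0 to 8869 CPM.

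In the 4 rats with at least 11 mast cells, Mcpt1 and Mcpt1l1 divided the cells by which of them was higher. This pattern was noticed in the data and is a description. The division was not clean, since 24 of the 90 cells held both genes. In young rat 1, all 4 cells with more Mcpt1l1 held Mcpt1, and 6 of the 21 with more Mcpt1 held Mcpt1l1. Mcpt1l1 exceeded Mcpt1 in 28 cells, Mcpt1 exceeded Mcpt1l1 in 60, and 2 cells had neither. The 28 cells were 4 of 25 in young rat 1, 4 of 11 in old rat 2, 10 of 20 in HFHF-old rat 1 and 10 of 27 in HFHF-old rat 2, with none among the 6 cells of young rat 2 and the 1 cell of old rat 1. As a share of mast cells this was 16.0% (exact interval 4.54% to 36.1%), 36.4% (10.9% to 69.2%), 50% (27.2% to 72.8%) and 37.0% (19.4% to 57.6%) in the 4 rats that had them. These intervals overlapped. Outside the mixed barcodes, the cells with more Mcpt1l1 numbered 2 of 20 in young rat 1 (10%, exact interval 1.23% to 31.7%), 3 of 10 in old rat 2, 5 of 13 in HFHF-old rat 1 (38.5%, 13.9% to 68.4%) and still 10 of 27 in HFHF-old rat 2. Over the 90 cells, the Spearman correlation of the 2 genes was -0.54 in CPM, and it was negative in each of the 4 rats with at least 11 mast cells (-0.18 to -0.76). The cells of a rat share a library, and depth differs between cells.

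**Figure D3:**
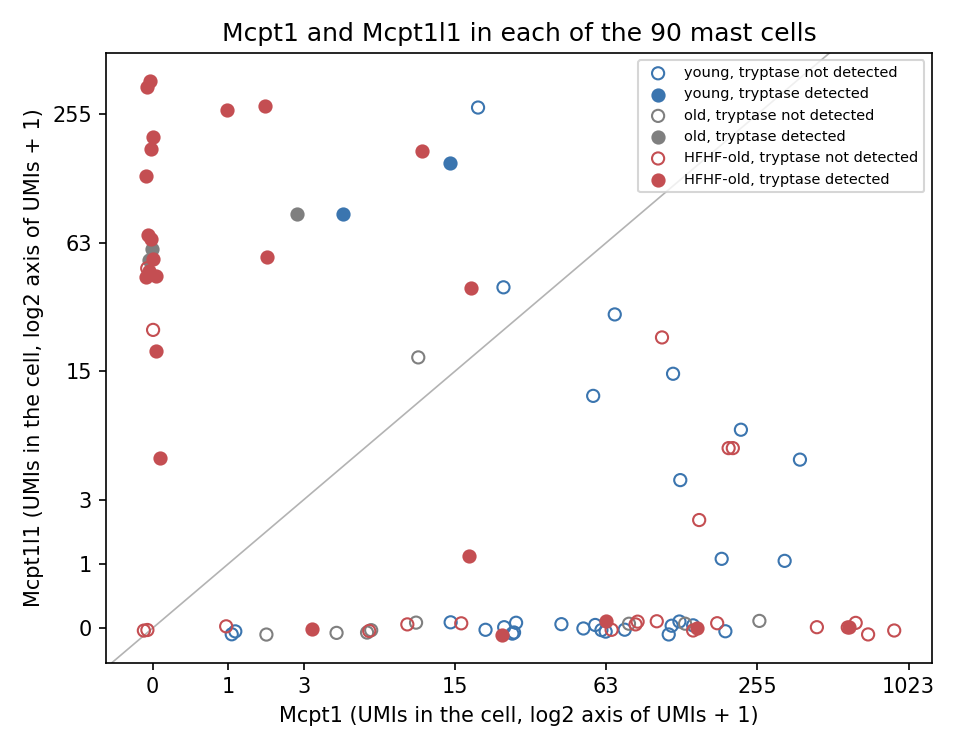
UMIs of Mcpt1 (x axis) and Mcpt1l1 (y axis) in each of the 90 mast cells, on log2 axes of UMIs + 1 with a small jitter. Colour gives the group, filled points held a UMI of Tpsb2 or Tpsab1, and the line marks equal counts. The 28 cells above the line include 23 of the 29 tryptase cells, and most of the 60 cells below it had no Mcpt1l1.

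Tryptase went with the Mcpt1l1 cells. A UMI of Tpsb2 or Tpsab1 was present in 23 of the 28 cells with more Mcpt1l1 and in 6 of the 60 with more Mcpt1, and all 6 of these came from HFHF-old rat 1. Tpsb2 summed to 3817 CPM in the former and 396 CPM in the latter, and Tpsab1 to 1918 and 13.7 CPM. Within rats, Tpsb2 was at 4222 against 2315 CPM in HFHF-old rat 1, and at 507, 2392 and 6074 CPM against 0 in young rat 1, old rat 2 and HFHF-old rat 2. Once the mixed barcodes were left out, Tpsb2 was at 0 in both sets of young rat 1, at 1642 and 6074 CPM against 0 in old rat 2 and HFHF-old rat 2, and at 11576 against 2611 CPM in HFHF-old rat 1, and tryptase was present in 15 of 20 cells with more Mcpt1l1 and in 5 of 53 with more Mcpt1. By rat, tryptase was found in 2 of 25 and 0 of 6 mast cells of the young, 0 of 1 and 3 of 11 of the old, and 16 of 20 and 8 of 27 of the HFHF-old rats. HFHF-old rat 1 was thus highest at 80.0% (exact interval 56.3% to 94.3%), while old rat 2 at 27.3% (6.02% to 61.0%) and HFHF-old rat 2 at 29.6% (13.8% to 50.2%) lay close together and their intervals overlapped. No young mast cell outside the mixed barcodes held tryptase (0 of 20 in young rat 1, with an exact interval up to 16.8%, and 0 of 3 in young rat 2). The counts were then 0 of 1 and 2 of 10 in the old rats and 10 of 13 and 8 of 27 in the HFHF-old rats. After each cell was thinned to 1000 UMIs, which left 84 cells, Tpsb2 was found in 0, 0, 0, 3, 15 and 7 cells of the 6 rats in the order young, old, HFHF-old. The other cells held a Tpsb2 UMI in 0.456% and 0.273% of barcodes in the HFHF-old rats and in at most 0.0172% in the other rats, where the median kept barcode had 9824 and 8613 UMIs against 2547 to 7826.

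Several other genes differed between these sets. The 28 cells with more Mcpt1l1 held Mrgprb3, a receptor of the Mas-related family that in mast cells responds to basic secretagogues, in 20 cells against 1 of 60, and Mrgprx2 of the same family in 10 against 3. Hpgds, the prostaglandin D2 synthase, was at 428 CPM against 99.0 CPM. The 60 cells with more Mcpt1 held 12006 CPM of Mcpt8 against 3178 CPM when summed over rats, but in young rat 1 the order turned (8786 against 10384 CPM), and only in old rat 2 and the HFHF-old rats was Mcpt8 higher (20411 against 8770, 6054 against 1626 and 15859 against 79.9 CPM). Mcpt8l2 was at 7888 against 344 CPM, and Mcpt1l4 and Gzmb were found in 31 and 17 of them against 0 of the 28. Within rats, Mcpt8l2 was at 7735 against 1757 CPM in young rat 1, 20335 against 299 in old rat 2, 5520 against 76.1 in HFHF-old rat 1 and 8201 against 40.0 in HFHF-old rat 2. Cma1 (17488 and 12924 CPM), Cpa3 (8310 and 10836 CPM) and Ms4a2 (1025 and 1104 CPM) were high in both sets. Median depth was 3768.5 UMIs in the former and 6871.5 in the latter. Among the 74 cells outside the mixed barcodes, Mrgprb3 was found in 12 of the 20 with more Mcpt1l1 and 1 of the 53 with more Mcpt1, Hpgds was at 616 against 116 CPM, Mcpt8l2 at 746 against 9531 CPM, Mcpt1l4 in 0 of 20 against 28 of 53, and Cma1 at 35140 against 15069 CPM. The order for Cma1 turned in old rat 2 (26637 against 41587 CPM). In these cells Cpa3 was at 15818 CPM with more Mcpt1l1 against 12255 with more Mcpt1, the reverse of the order with all members. By rat, Cpa3 was higher with more Mcpt1l1 in young rat 1 and HFHF-old rat 1 and lower in old rat 2 and HFHF-old rat 2. Mcpt8 was at 5321 against 14161 CPM, again with the other order in young rat 1 (17121 against 12483 CPM).

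A further set of 12 cells with at least 2 UMIs of Mcpt3, a chymase relative, came from young rat 1 (6), young rat 2 (1) and HFHF-old rat 2 (5). Mcpt1l4 was present in 12 of these 12 and Gzmb in 10, while none held Tpsb2 and 1 held Mcpt1l1. Among the other 78 cells, Mcpt1l4 was found in 20, Gzmb in 8, Tpsb2 in 28 and Mcpt1l1 in 40. Median depth was 13288 UMIs in the 12 cells and 5329.5 in the 78, and low genes are detected more often in deeper cells. The median Cpa3 level of the 12 cells was 3154 CPM against 11089 CPM in the other 78 cells. In addition, 7 members had no Cma1 UMI. Of these, 4 were cells of HFHF-old rat 1 that held both tryptase and Mcpt1, 3 of them outside the mixed barcodes. The others had only 2 to 4 Cpa3 UMIs and no tryptase. They were a mixed barcode of HFHF-old rat 1 with 14956 acinar UMIs among 51559 and no Mcpt1, Mcpt8, Hdc or Gata2. Another was a mixed barcode of young rat 1 with 49 macrophage UMIs. The last, in HFHF-old rat 2, had 93 UMIs of Hdc and 18 of Gzmb but no Mcpt1.

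The genes of these proteases lie in a few places of the genome. In the RefSeq annotation of GRCr8, Cma1, Mcpt3, Mcpt8l2, Mcpt8, Mcpt1 and Mcpt1l1 are all on chromosome 15, the tryptase genes are on chromosome 10 and Cpa3 is on chromosome 2. The deposited counts were made on another build, Rnor_6.0, and were matched to these records by symbol only. The 250 bases before the annotated start are shown for the pair of genes that divided the cells, for Tpsb2 and Mcpt8, and for Cma1 and Cpa3, which both sets shared. They lie at chr15:33841356-33841605 (plus strand) for Mcpt1, chr15:33876896-33877145 (minus) for Mcpt1l1, chr15:33769399-33769648 (plus) for Mcpt8, chr10:14886060-14886309 (plus) for Tpsb2, chr15:33390134-33390383 (minus) for Cma1 and chr2:104673238-104673487 (minus) for Cpa3. Capitals mark AGATAA or TTATCT, the 2 strands of 1 form of the GATA factor motif. They also mark CACATG or CATGTG, those of 1 form of the E-box. Each is read 5′ to 3′ along the gene's strand, and other forms were not searched for.
Mcpt1: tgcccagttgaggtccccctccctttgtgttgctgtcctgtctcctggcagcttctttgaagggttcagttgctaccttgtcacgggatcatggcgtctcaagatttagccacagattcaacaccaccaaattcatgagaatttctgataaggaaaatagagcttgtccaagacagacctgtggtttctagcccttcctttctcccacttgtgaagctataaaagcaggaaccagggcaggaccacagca
Mcpt1l1: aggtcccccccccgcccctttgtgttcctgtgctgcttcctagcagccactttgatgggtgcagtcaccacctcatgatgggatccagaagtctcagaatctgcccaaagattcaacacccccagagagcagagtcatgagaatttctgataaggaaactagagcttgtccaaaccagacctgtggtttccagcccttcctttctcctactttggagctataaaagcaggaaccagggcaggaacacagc
Mcpt8: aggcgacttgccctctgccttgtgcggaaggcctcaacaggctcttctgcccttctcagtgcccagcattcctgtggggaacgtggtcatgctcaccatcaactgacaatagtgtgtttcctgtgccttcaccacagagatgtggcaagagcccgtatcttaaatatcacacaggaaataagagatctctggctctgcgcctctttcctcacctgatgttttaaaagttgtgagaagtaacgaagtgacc
Tpsb2: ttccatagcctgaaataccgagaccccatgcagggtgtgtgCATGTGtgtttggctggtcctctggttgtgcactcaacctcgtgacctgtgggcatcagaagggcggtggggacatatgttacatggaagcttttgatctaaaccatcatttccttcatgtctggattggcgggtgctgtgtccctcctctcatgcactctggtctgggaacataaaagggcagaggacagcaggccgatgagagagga
Cma1: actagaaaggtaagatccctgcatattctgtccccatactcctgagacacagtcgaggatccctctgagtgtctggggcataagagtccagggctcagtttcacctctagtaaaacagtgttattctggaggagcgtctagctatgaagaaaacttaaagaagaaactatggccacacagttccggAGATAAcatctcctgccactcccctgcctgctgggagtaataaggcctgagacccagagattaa
Cpa3: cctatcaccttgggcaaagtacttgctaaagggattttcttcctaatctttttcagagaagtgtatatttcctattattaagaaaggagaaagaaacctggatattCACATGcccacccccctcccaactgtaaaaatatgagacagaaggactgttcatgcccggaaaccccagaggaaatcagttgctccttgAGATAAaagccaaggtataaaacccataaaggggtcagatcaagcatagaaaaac

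Mcpt1 and Mcpt1l1 were identical at 77.8% of aligned positions in this window, Mcpt1 and Mcpt3 at 83.7%, Mcpt8 and Mcpt8l2 at 83.6%, and the tryptase genes Tpsb2 and Tpsab1 at 55.6%. The GATA letters searched for (AGATAA or TTATCT) occurred in the windows of Cma1 and Cpa3 and in neither Mcpt1 nor Mcpt1l1. The windows of Mcpt1 and Mcpt1l1 both hold tgataa, which differs from AGATAA in 1 letter and was not searched for. Gata2, a transcription factor of the mast cell lineage, was found in 77 of the 90 cells. The E-box letters searched for (CACATG or CATGTG) occurred in the windows of Cpa3 and Tpsb2. Over all 27457 promoters of this length, 10.0% held the GATA letters and 11.7% the E-box. Of the 14 genes with a window among the 20 named next, 2 (Cma1 and Rgs13) held the GATA letters and 1 (Tal1) the E-box. A match is a description of letters. Close relatives such as Mcpt1 and Mcpt1l1 or Mcpt8 and Mcpt8l2 may also share reads, and how such reads were assigned was not tested.

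To see which genes set the mast cells apart, their summed UMIs were compared with those of the other kept cells of the same rat. The 4 rats with at least 10 mast cells entered (young 1, old 2 and both HFHF-old rats), and a gene was called at an adjusted p under 0.05 and a change over 1.5-fold. Of 16373 genes tested, 776 were called (4.74% of all genes), of which 273 were higher (1.67%) and 503 lower (3.07%) in mast cells. The median gene was lower by a log2 change of -0.55. Since mast cell genes chose the members, genes that accompany them had to be higher, and these calls describe the gated cells. Without old rat 2 the count was 218 and without HFHF-old rat 2 it was 255. Without the mixed barcodes it was 2234 of 16348 genes, of which 435 were higher and 1799 lower. With all 6 rats it was 1913 of 16617 genes, of which 442 were higher and 1471 lower. The list counts of these fits below are to be read against these counts.

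The 20 genes outside the rule with the highest fold change, among those called, at least 100 CPM on average and higher in all 4 rats, were led by proteases and by genes of histamine and granule biology. The log2 fold change was 12.93 ± 0.83 (SE, 4 rats) for Mcpt1l1, 12.15 ± 0.75 for Cma1, 11.50 ± 0.81 for Mrgprb3, 11.10 ± 0.66 for Mcpt1 and 10.57 ± 0.79 for Mcpt8l2, with edgeR adjusted p of 1.82e-07, 1.44e-07, 3.37e-07, 1.44e-07 and 9.61e-07. Hdc, which makes histamine from histidine, followed at 9.36 ± 0.51, then Rgs13, a regulator of G protein signalling, at 8.98 ± 0.61 and Gata2 at 8.95 ± 0.50. Slc45a3, the transcription factor Tal1 and Tph1, the first enzyme of serotonin synthesis, stood at 8.24 ± 0.48, 7.08 ± 0.58 and 6.66 ± 0.80. The others were Mcpt8, RGD1564571, AC103574.1, LOC685680, Syngr1, Slc18a2, Pla2g7, AABR07030590.1 and Cd72, at 5.14 to 10.95. These 20 kept their call under each of 14 alternatives except Tph1, which lost it under a stricter gate (at least 5 Cpa3 UMIs and 2 second markers). This gate left old rat 2 with 9 mast cells and so out of the fit, so both the gate and the rats changed. Tph1 kept its call when old rat 2 alone was left out.

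**Figure D4:**
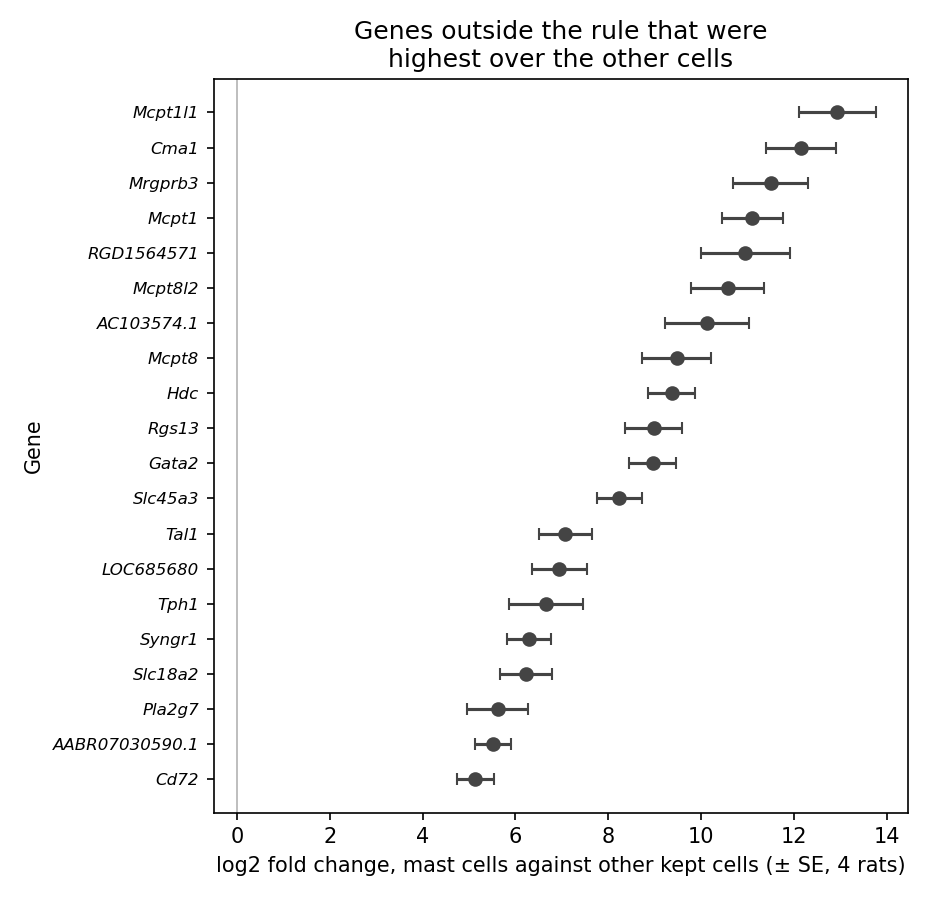
Log2 fold change of mast cells against the other kept cells (x axis, points, with bars of ± SE from the fit to 4 rats). The 20 genes on the y axis lie outside the rule. They had the highest change among called genes of at least 100 CPM on average that were higher in all 4 rats. Values run from 5.14 for Cd72 to 12.93 for Mcpt1l1.

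Of the granule protease list, 10 genes outside the rule were tested and 7 were higher and 0 lower (7 and 1 without the mixed barcodes), with a median log2 change of 10.02 against -0.55 for all genes. Besides those named above, Mcpt3 (12.75 ± 0.86) and Mcpt1l4 (5.06 ± 0.70) were called, but both were at 0 in old rat 2 and so were not among the 20 named. Gzmb, a cytotoxic granule protease, did not pass (1.17 ± 0.66, edgeR adjusted p = 0.42), nor did the lysosomal cathepsins Ctsd and Ctsz. Of the amine and granule matrix list, 7 of 13 were higher and 0 lower (8 and 2 without the mixed barcodes). Hdc was at 638 and 240 CPM in the mast cells of the young rats, 132 and 952 in the old, and 769 and 1512 in the HFHF-old rats, against 0.350 to 2.77 CPM in other cells. Slc18a2, which loads amines into granules, Tph1, Ddc, which completes serotonin synthesis, and Slc6a4, the serotonin transporter, were all higher (6.23, 6.66, 4.44 and 7.28). Srgn, the core protein of the granule proteoglycan, was higher by 4.30 ± 0.39 and ran from 2598 to 10477 CPM, and the granule membrane protein Cd63 by 2.02 ± 0.49.

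Of the IgE receptor and signalling list, 5 of 23 genes outside the rule were higher and 0 lower. They were the kinase Btk (3.63 ± 0.65), the adaptors Lat2 (2.87 ± 0.56) and Lcp2 (1.61 ± 0.35), and Stx3 (2.29 ± 0.38) and Rab27b (2.89 ± 0.47), which act in granule docking and release. Fcer1g, the gamma chain that other myeloid cells and natural killer cells also carry, was at 884 to 2336 CPM in mast cells against 532 to 762 CPM in other cells and did not pass (0.54 ± 0.33, edgeR adjusted p = 0.474). The kinases Lyn (1.00 ± 0.35) and Syk (-0.10 ± 0.39) did not pass either. Without old rat 2, with the main or the stricter gate, the other 4 calls were lost and Stx3 was called. With the mixed barcodes left out, 7 genes were higher and 2 lower. The list's median of 0.54 stood above that of all genes.

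Of the receptor list, 9 of 26 were higher and 1 lower. Il1rl1, the receptor for interleukin-33, was higher by 4.16 ± 0.45 and stood at 602 and 429 CPM in the young, 1937 and 952 in the old, and 617 and 702 in the HFHF-old rats, against 17.8 to 103 CPM in other cells. Csf2rb, the chain shared by the receptors for interleukin-3 and GM-CSF, was higher by 4.93 ± 0.50, the interleukin-9 receptor Il9r by 4.08 ± 0.73 and Mrgprx2 by 4.29 ± 0.70. The ATP-gated channels P2rx7 and P2rx1 (3.74 and 3.21), Il3ra (1.98), the histamine receptor Hrh4 (5.64 ± 1.35, with few UMIs) and the growth factor Csf1 (1.79) were also higher, and Il13ra1 was lower (-3.98), a call lost under most alternatives, among them against other cells with a Ptprc UMI (edgeR adjusted p = 0.0581). Under the stricter gate, without old rat 2, 4 of the 26 were higher and 0 lower. Of the transcription factor list, 3 of 17 were higher, namely Gata2, Tal1 and Ikzf2 (2.81 ± 0.37), and Bhlhe40 was lower (-1.90 ± 0.52), against 7 higher and 2 lower without the mixed barcodes. Mitf, a regulator of Kit and protease genes, was at 1.11 ± 0.35 and did not pass (edgeR adjusted p = 0.0905).

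Of the lipid mediator list, 4 of 13 were higher. They were Alox5 and its partner Alox5ap, which start leukotriene synthesis (4.31 ± 0.71 and 2.98 ± 0.59), Hpgds (3.42 ± 0.52) and the constitutive cyclooxygenase Ptgs1 (2.19 ± 0.44). Ltc4s, the leukotriene C4 synthase, was at 2.69 ± 0.86 and did not pass, and Pla2g2a was lower (-4.88 ± 0.98), with 5 higher and 2 lower when the mixed barcodes were left out. The 4 higher calls were lost without old rat 2, with the main or the stricter gate, and Pla2g2a was not called against other cells with a Ptprc UMI (edgeR adjusted p = 0.123). Of the cytokine list, 1 of 23 was higher, Osm (3.04 ± 0.47), and 3 were lower, the chemokines Ccl3, Ccl4 and Ccl5 (-3.71, -4.26 and -5.91). These counts were 2 and 8 without the mixed barcodes, where 435 and 1799 of all 16348 genes were higher and lower. With all 6 rats they were 2 and 7, where 442 and 1471 of all 16617 genes were. Il4 and Il13 had UMIs in the mast cells of HFHF-old rat 2 only, at 3.41 CPM each.

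Of the 12 lists, that of antigen presentation had the lowest median. Of 7 MHC class II genes tested, 6 were lower and 0 higher, with a median log2 change of -4.86. The invariant chain gene Cd74 was at 52.3 and 1389 CPM in the mast cells of the young rats, 88.0 and 865 in the old, and 59.5 and 0 in the HFHF-old rats, against 437 to 3982 CPM in other cells. Its high values came from young rat 2 and old rat 2. Barcodes with at least 20 macrophage UMIs made up 3 of 6 and 1 of 11 members there, and 6 of 20 in HFHF-old rat 1, where Cd74 was at 59.5 CPM. Which barcodes carried the Cd74 UMIs was not tested. Under the stricter gate, without old rat 2, 4 genes of the list were lower. Of the immediate early and dissociation response list, 1 of 24 was higher (Jun, 1.25 ± 0.34) and 0 lower. Without the mixed barcodes 4 of the 24 were lower, where 1799 of all 16348 genes were lower. With all 6 rats 3 were lower, where 1471 of all 16617 genes were. Of the oxidative stress defence list, 1 of 25 was higher, Nqo1 (2.59 ± 0.47), and Sod3 and Gpx3 were lower (-2.04 and -2.69). When the mixed barcodes were left out, 5 of the 25 were lower, as were 1799 of all 16348 genes. Sod3 and Gpx3 were not called against other cells with a Ptprc UMI (edgeR adjusted p = 0.674 and 0.372). No gene was called among 18 endoplasmic reticulum stress genes and 9 proliferation genes, with median changes of -0.23 and -0.09.

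**Figure D5:**
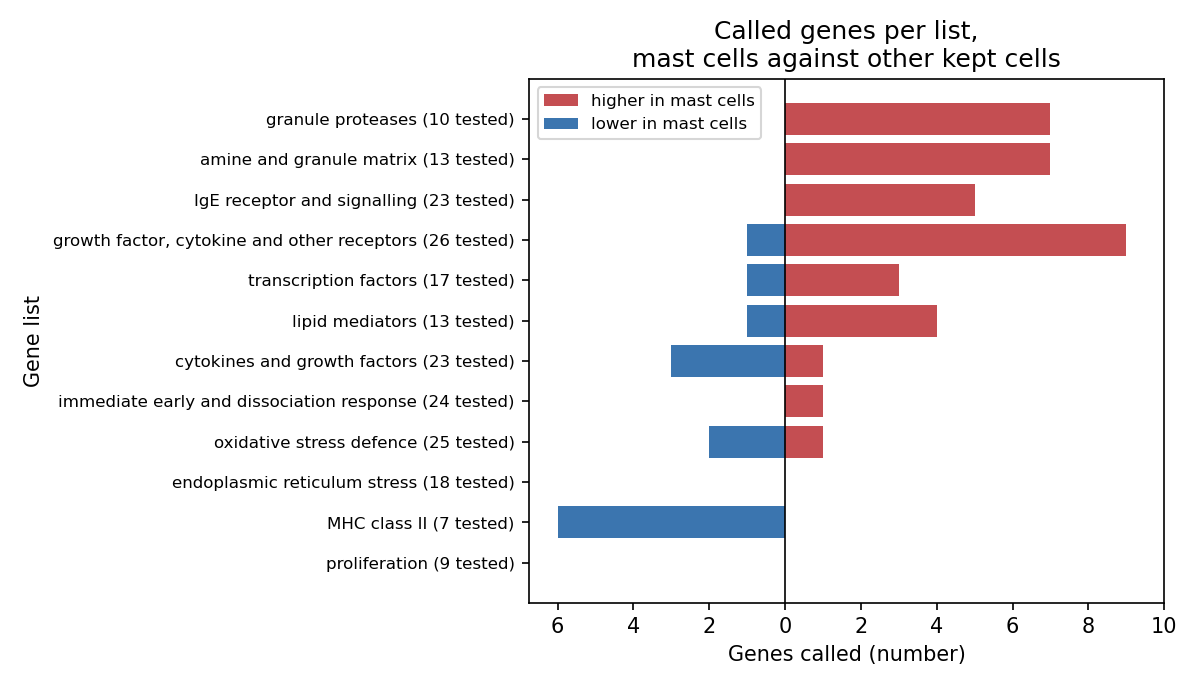
Number of genes called higher (right) or lower (left) in mast cells against the other kept cells of 4 rats (x axis, with edgeR adjusted p under 0.05 and over 1.5-fold) for each gene list (y axis, with the number tested). The granule protease and amine lists each had 7 higher genes, the receptor list 9, and MHC class II 6 lower genes.

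Finally, age and diet were compared within mast cells. The sums of the same 4 rats entered, so that the young and old groups had 1 rat each and the spread came from the HFHF-old rats, with 1 residual degree of freedom. The 3 comparisons share rats and are given side by side. Of 5346 genes tested by edgeR, 0 (0%) were called between the HFHF-old and old groups, 0 (0%) between the old and young groups and 0 (0%) between the HFHF-old and young groups. At an unadjusted p under 0.05 there were 886, 820 and 193 genes in the same order. DESeq2 called 2, 0 and 0 genes. The 2 were the acinar enzyme gene Pnliprp1 and LOC312273, whose 1930 and 590 UMIs in HFHF-old rat 1 stood against 0 in HFHF-old rat 2. In data simulated for HFHF-old against old with all members, edgeR recovered neither 4-fold nor 16-fold changes (0% of changed genes). The mast cells of old rat 2 gave 23115 UMIs in all, and 4270 of the 5346 genes had at most 3 UMIs in them.

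Without the mixed barcodes, a choice made after seeing the data, edgeR called 232, 134 and 67 of 3108 genes in that order of comparisons, edgeR's older quasi-likelihood method 16, 19 and 54, and DESeq2 0, 0 and 0. These fits rest on few UMIs, since the mast cells of old rat 2 then held 18562 UMIs in all. With all members, 4270 of the 5346 genes tested had at most 3 UMIs in old rat 2, and 1563 had none. Old rat 2 is part of the first 2 comparisons only.

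Of the proteases and mediators, none passed the edgeR test between the groups with all members included. For HFHF-old against old, the log2 change was -1.08 ± 0.84 (SE) for Cma1, 0.15 ± 0.89 for Mcpt1, -0.51 ± 1.05 for Mcpt1l1, -0.56 ± 1.05 for Mcpt8 and 0.57 ± 0.56 for Hdc, where the median gene moved by 0.63. For HFHF-old against young, the same genes were at -0.02 ± 0.86, -0.12 ± 0.88, 0.73 ± 1.11, -0.04 ± 1.07 and 0.90 ± 0.56. For old against young they were at 1.06 ± 1.01, -0.26 ± 1.02, 1.24 ± 1.26, 0.52 ± 1.24 and 0.33 ± 0.63. The edgeR adjusted p of these values was 0.566 or more. Mcpt1l4, Mcpt3 and Gzmb had 0 UMIs in old rat 2 and no fold is given for them against it. Without the mixed barcodes their edgeR adjusted p was 5.49e-07, 0.000426 and 0.0031 for HFHF-old against old and 9.57e-09, 9.78e-06 and 1.94e-05 for old against young, while DESeq2 called none. Nearly all of their HFHF-old UMIs came from rat 2, with 412, 192 and 114 against 16, 1 and 1 in rat 1. All 3 were detected in old rat 1, which was not in the fit, at 1321, 44.0 and 2289 CPM. Hdc was higher in both HFHF-old rats than in young rats 1 and 2 and in old rat 1 (132 CPM). Old rat 2 at 952 CPM lay between HFHF-old rat 1 at 769 and HFHF-old rat 2 at 1512 CPM.

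Some of the genes with the smallest p whose rats did not overlap among the 4 fitted follow. They did not pass with all members included. With 1 young and 1 old rat fitted, such separation is easily met, and its share over all genes was not counted. LOC100363469, Ltbp1 and Phip, the higher genes of smallest p for HFHF-old against old, had no UMI in old rat 2, and no fold is given for them. Gna14, a G protein alpha subunit, had 0 and 1 UMIs in the young, 0 and 1 in the old, and 39 and 33 in the HFHF-old rats. The adhesion receptor Cd44 had 4 and 1, 7 and 1, and 34 and 43 UMIs, and the natural killer receptor family gene Ly49si1 had 8 and 21, 4 and 4, and 86 and 190. The HFHF-old mast cells held the most UMIs of each, but their sums were also the deepest, with 269026 and 293600 UMIs. In CPM, Cd44 was highest in old rat 1 (308), above HFHF-old rats 1 and 2 at 126 and 146. Ly49si1 was also higher in the other cells of the HFHF-old rats, at 266 and 260 CPM against 67.5 to 145 CPM in the young and old rats. For HFHF-old against young, the log2 change was 2.76 ± 0.45 for Cd44 and 3.56 ± 0.63 for Ly49si1, and no fold is given for Gna14, which had no UMI in the young rat fitted. The edgeR adjusted p was 0.922 for each of the 3 genes. Without the mixed barcodes the edgeR adjusted p was 0.000681 for Gna14, 0.0246 for Cd44 and 0.000426 for Ly49si1, and DESeq2 called none.

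The stress gene Gadd45a had 9 and 4, 4 and 16, and 25 and 49 UMIs, a log2 change of 3.61 ± 0.59 for old against young (edgeR adjusted p = 0.281, and 0.0176 without the mixed barcodes, where DESeq2 called none). Ptgs2, the inducible cyclooxygenase, had 11 and 0, 0 and 14, and 12 and 10 UMIs, which gave -3.55 ± 0.50 for HFHF-old against old (edgeR adjusted p = 0.265). Old rat 1, not in the fit, was at 0, below both HFHF-old rats. Its CPM of 606 in old rat 2 stood apart from 0 to 57.6 in all other rats. Postn, Sparcl1, Pi15 and Srpx, which are expressed by fibroblasts, were among the genes of smallest p for HFHF-old against young and did not pass. They had 150, 50, 51 and 41 UMIs in young rat 1, 0, 3, 0 and 1 in young rat 2, 3, 0, 0 and 1 in HFHF-old rat 1, and 1, 0, 0 and 2 in HFHF-old rat 2. The UMIs in young rat 1 coincided with its 4 fibroblast-rich barcodes, and without the mixed barcodes none of these 4 genes had enough UMIs to be tested.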

How the data were processed

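Single-cell RNA-seq libraries (10x Genomics 3′ chemistry) of 6 rats were analysed, 1 library per rat. The files deposited by the authors hold counts, whole numbers of UMIs per gene and barcode, with no normalization. The file headers name Cell Ranger 5.0.0, the study's methods name another version, and the submitters' processing notes name the build Rnor_6.0. All 32883 genes were used, and 0 further columns of per-sample values were present.

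Groups came from the labels. Barcodes with at least 200 genes and at most 25% mitochondrial UMIs were kept (75981 of 78024). No doublet caller was run, and mixed barcodes were examined instead. The members and gene lists were chosen with earlier results of these data known. UMIs were summed per rat, and the 4 rats with at least 10 mast cells were tested with edgeR 4.0.16 (quasi-likelihood test, TMM scaling, filterByExpr, Benjamini-Hochberg adjustment, R 4.3.3, limma 3.58.1), with rat as a block against other cells. Shares were compared by two-sided exact permutation tests with exact Clopper-Pearson 95% intervals, which cover counting error only. DESeq2 1.42.0 was an alternative. Python 3.11.15 with numpy 2.4.6, pandas 2.3.3 and scipy 1.17.1 was used for the rest.

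Genes were named by rule: the 20 with the highest fold change among called genes outside the rule, of at least 100 CPM on average in mast cells and higher in all 4 rats (126 met it), and for group comparisons, where fewer than 5 genes were called, the 10 of smallest p in each direction with a mean of at least 50 CPM and no overlap between the fitted rats of the groups, of which some are printed. Other named genes are members of the lists. The splits by Mcpt1 and Mcpt1l1, by Mcpt3 and by missing Cma1 were chosen after values were seen. In simulated counts for mast against other cells (15575 genes), 27.3% of 4-fold and 73% of 16-fold changes were recovered. Promoter sequences are those of RefSeq (GRCr8). Mast cell sums held 22717 to 293600 UMIs per rat.

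Replicate numbers were given by the labels without a shared litter or day. The correlation of deviations from group means between same-numbered rats was -0.00248 (young and old), -0.0607 (young and HFHF-old) and -0.220 (old and HFHF-old) over 3306 genes, so the numbers were not taken to pair the rats. Alternatives comprised other scaling, filters, gates, denominators and leaving out each rat.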

Additional observations from a re-analysis of the deposited data

How the results depend on the processing

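The mast cell share kept its direction under 13 alternatives for each group difference: 0.0461 to 0.206 points between the HFHF-old and old groups, 0.0306 to 0.137 between HFHF-old and young, and -0.123 to -0.0155 for old against young. Leaving out each rat gave 0.120 to 0.190, 0.0521 to 0.137 and -0.103 to -0.0179, where the values of 0.0521 and -0.103 came without young rat 2 and those of 0.137 and -0.0179 without young rat 1. With the replicate number as a block, the share differences were 0.155, 0.0945 and -0.0603. They could not differ from those without it, since each group held 1 rat of each number. Dropping the tryptases from the rule changed no member and so gave the same values. Over all 6 rats the block and the crossed pairing gave 0 called genes.

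For mast against other cells, the 776 calls became 218 to 772 when each rat was left out, 220 under a stricter gate that also dropped old rat 2 (9 cells left; 218 without this rat alone) and 195 without the rat block. Alternatives chosen after seeing the data gave 1913 with all 6 rats, and without mixed barcodes 2234 with edgeR, 2466 with its older quasi-likelihood method and 1484 with DESeq2; the causes were not tested. Of 865 values of named genes under the alternatives, 742 kept their call, 123 lost it and 0 reversed.

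Within mast cells, DESeq2 called 2 genes for HFHF-old against old. Without mixed barcodes, edgeR called 232 genes in that comparison, 134 between the old and young groups and 67 between the HFHF-old and young groups, the older method 16, 19 and 54, and DESeq2 0 in each; the cause was not tested. Without young rat 1 (5275 genes) edgeR called 0 between the HFHF-old and old groups (1107 before adjustment, at p under 0.05), and without old rat 2 (5672 genes) 0 between the HFHF-old and young groups (222 before adjustment). Not run were, with 4 rats, the replicate block, the other leave-outs, the stricter gate for comparisons with the old group, and gene tests without barcodes of other lineages, since no group or residual degree of freedom was left. Old rat 2, with 11 mast cells and 23115 UMIs, limits the comparisons of the 4 rats with the old group, where it is the only old rat. Without it, the old group rests on the 1 mast cell of old rat 1, with 22717 UMIs.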

Other observations

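Several barcodes outside the rule carried mast cell or basophil genes. In HFHF-old rat 2, 2 barcodes with 57283 and 55155 UMIs in all had fewer than 2 Cpa3 UMIs but 4741 and 2862 UMIs of Mcpt8, 23 and 31 of the basophil protease Prss34, 43 and 48 of Ms4a2 and 143 and 207 of Cma1. The first had no CD3 UMI and the second had 13. Prss34 had 59 UMIs in 6 of the cells outside the rule in this rat and 0 in the other 5 rats.

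The CD3 part of the rule removed 9 barcodes. Of these, 6 had 45 to 337 UMIs of Cpa3 beside 1 to 15 CD3 UMIs, and 5 had at least 10 UMIs of Cma1. A further 37 barcodes had at least 2 Cpa3 UMIs and no second marker, and 24 of them had no Cma1 UMI. Old rat 2 held 12 of the 37, beside its 11 members. Most of these 12 carried Cma1, at 1 to 7 UMIs in shallow barcodes of 512 to 1105 UMIs. HFHF-old rat 1 also held 12 of the 37, none of them with Cma1. The share of old rat 2 thus leaves out shallow barcodes with some mast cell genes.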
